A study of Mus musculus with 2 samples.

Results

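The 9 lymphocyte lineage transcription factors described here are Tbx21 (T-bet), Eomes, Foxp3, Gata3, Rora, Bcl6, Prdm1 (Blimp-1), Zeb2 and Ikzf2 (Helios). They were chosen by gene symbol, with earlier results of these data known, and are 9 of the 56941 features in the files. Each symbol occurred once among the features, so no member was ambiguous. Their levels were followed through CD8, CD4, Treg, NK and other cells of both single-cell libraries.

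The cells were CD45+ cells selected from liver metastases of C57BL/6 mice, aged 6 to 8 weeks, whose spleens had been injected with MC38-LM3b cells, a strongly liver-metastatic derivative of the MC38 mouse colon cancer line. Tumor cells of the Ctrl group held a short hairpin RNA of scrambled sequence (MC38-LM3b-shScramble), and those of the KD group 1 hairpin against SLAMF3 (MC38-LM3b-shSLAMF3). SLAMF3, the product of Ly9, belongs to the SLAM receptors of immune cells. Lesions were collected 2 weeks after injection, and the lesions of 3 mice were pooled into 1 library per group, so the mice cannot be separated and there is no replicate error. The hairpin was in the tumor cells alone, and the immune cells came from hosts without it.

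Because each group was 1 library, no test was possible and no p-value is given. Levels are CPM, the UMIs of a gene summed over the cells of a class, divided by all UMIs of that class and scaled to a total of 1e+06. A UMI is a molecular barcode that marks 1 captured RNA molecule. Ranges in brackets are 95% intervals, and they cover counting error only, not the spread between mice. A log2 ratio is KD over Ctrl throughout, and a gene counts as different when it had at least 50 UMIs over both libraries and was past 1.5-fold. In summed RNA of a class, fewer expressing cells and less RNA per cell cannot be told apart.

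The Ctrl library held 10416 barcodes and 67207234 UMIs, and the KD library 10943 barcodes and 64444715 UMIs. The filters of the study left 9814 Ctrl and 10185 KD cells, with medians of 5411.5 and 4989 UMIs per cell. The libraries shared 27 barcodes. Ly9 itself was sparse in the tumor-like or fibroblast-like cells that had passed the CD45 selection, with 12 UMIs (5.91 CPM) in Ctrl and 7 (5.36 CPM) in KD, so these cells do not check the hairpin.

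Lineage factors of lymphocytes bind DNA and set which effector genes a cell can use. Tbx21 and Eomes are T-box factors of type 1 immunity in CD8+ T cells, NK cells and ILC1. Foxp3 defines regulatory T cells (Treg), in which the Ikaros family member Ikzf2 is also abundant. Gata3 drives type 2 responses and early T cell development, and the nuclear receptor Rora is known from ILC2, Th17 cells and tissue Treg. Bcl6 and Prdm1 repress each other: Bcl6 sustains follicular helper and germinal center B cells, and Prdm1 effector, terminal and plasma cell fates. Zeb2, a zinc finger repressor, acts with Tbx21 in late effector CD8+ T cells and NK cells, and is also a factor of macrophages and of plasmacytoid dendritic cells.

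Cells were clustered without these 9 genes and without 52 other lymphocyte transcription factors among the variable genes, and Treg were named without Foxp3 or Ikzf2, so that the classes did not rest on the members. The CD8 class held 2557 Ctrl and 1018 KD cells, the CD4 class 119 and 330, the Treg class 77 and 116, the NK class 149 and 118, an ILC1-like class 15 and 96, and a naive-like T cell class led by Lef1 and Tcf7 196 and 354. The defining markers fitted these names, except that the ILC1-like class also held T cell RNA. In mean scaled counts per cell over both libraries, Cd3e was at 1.17 and Cd8a at 0.55 there, against 0.09 and 0.04 in NK cells. Cd8a was at 259 and 206 CPM in CD8 cells and at 6.18 and 7.5 CPM in CD4 cells, while Cd4 was at 369 and 408 CPM in CD4 cells. Treg had Ctla4 at 1643 and 2421 CPM and Il2ra at 347 and 221 CPM. NK cells had Ncr1 at 407 and 528 CPM with Cd3e at 8.59 and 20.9 CPM, and the ILC1-like cells had Itga1 at 109 and 252 CPM and Ncr1 at 612 and 441 CPM. The CD8 class of KD held more RNA of other lymphocytes than that of Ctrl, with Cd4 at 18.3 against 3.5 CPM and Ncr1 at 15.7 against 0.682 CPM. Granulocyte RNA also differed, with S100a8 at 47.4 against 9.10 CPM in CD8 cells. How much these carried the differences below was not tested.

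Each member had a characteristic distribution over the classes, and among CD8, CD4, Treg and NK cells the class with the highest level was the same in both libraries for 9 of 9 members. Tbx21, Eomes, Bcl6 and Zeb2 were highest in NK cells, Foxp3, Prdm1 and Ikzf2 in Treg, and Gata3 and Rora in CD4 cells. Classes made from the UMIs of single cells used only Cd3, Cd8, Cd4 and NK receptor genes. They had no Treg, ILC1-like or naive-like class, so such cells could fall in the CD4, NK and CD8 classes. With them Eomes in KD was highest in CD8 cells instead, and Foxp3, Prdm1 and Ikzf2 were highest in CD4 cells in both libraries. For Prdm1 the level of Treg was 1.09-fold (0.767 to 1.56) and 1.24-fold (0.991 to 1.55) that of CD4 cells, within counting error. For Gata3 the order of CD4 and Treg was within counting error too, and with likely doublets removed or at resolution 0.5 Treg came first in both libraries. The map of the 9 factors shows these distributions, which should be read along a row, since counts at the 3' end are not comparable between genes.

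**Figure D1:**
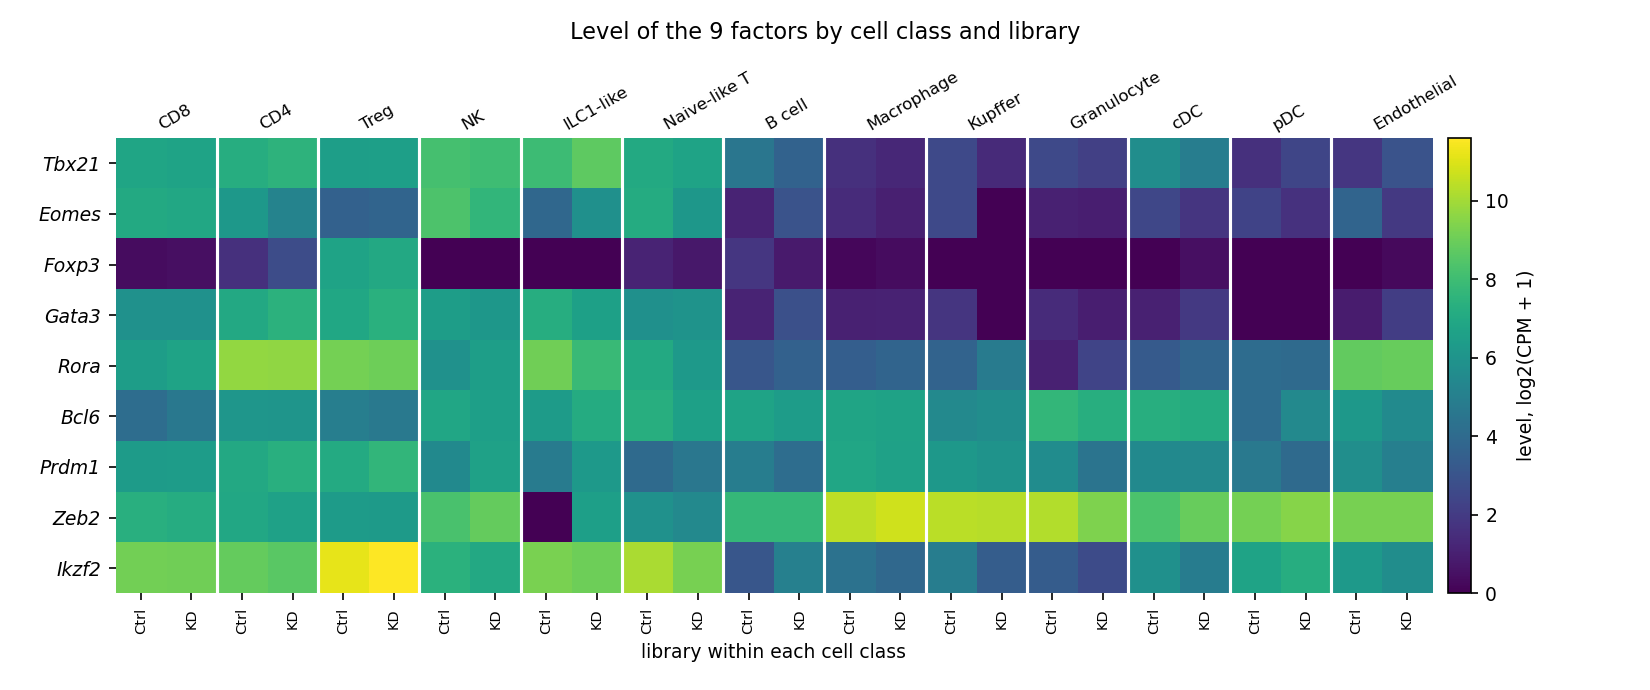
Level of each factor as log2(CPM + 1) in 13 cell classes, with the Ctrl and the KD library side by side in each class and 1 library per cell of the map. Foxp3 stands out in Treg alone, Rora is high in CD4, Treg and endothelial cells, Zeb2 is highest in macrophages, and Ikzf2 is highest in Treg. The dark Zeb2 cell of ILC1-like cells is a count of 0 in 15 Ctrl cells.

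The 2 T-box factors separated the type 1 classes from one another, and the sequences upstream of both genes are shown because the balance between them differed between the classes. Both are from RefSeq in build GRCm38.p6, an older build than the GRCm39 named in the processing notes of the submitters, and each runs from 250 bases before to 50 bases after the start of the gene. The Tbx21 sequence is chr11:97115282-97115581 on the minus strand and the Eomes sequence chr9:118477939-118478238 on the plus strand. Capitals mark the E-box CACCTG, the motif of ZEB factors, here read as CAGGTG on the strand of the gene.
Tbx21: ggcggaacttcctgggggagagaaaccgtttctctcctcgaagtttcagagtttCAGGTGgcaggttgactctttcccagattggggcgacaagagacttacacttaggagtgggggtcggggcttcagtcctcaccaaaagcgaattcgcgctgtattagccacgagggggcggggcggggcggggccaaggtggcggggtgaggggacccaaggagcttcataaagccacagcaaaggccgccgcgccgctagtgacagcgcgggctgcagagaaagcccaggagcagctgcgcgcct
Eomes: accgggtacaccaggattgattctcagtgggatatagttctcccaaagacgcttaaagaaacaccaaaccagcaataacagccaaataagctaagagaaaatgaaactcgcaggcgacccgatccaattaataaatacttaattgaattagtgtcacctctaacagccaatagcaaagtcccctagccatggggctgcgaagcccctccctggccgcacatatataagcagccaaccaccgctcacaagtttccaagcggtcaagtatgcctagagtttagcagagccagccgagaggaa
The Tbx21 sequence had 62.0% G and C and 1 E-box, and the Eomes sequence had 47.3% and none. The T-box motif GGTGTGA, sought on both strands, was in neither. Among all 32851 promoters of this length in the table, 20.2% held the E-box and 3.98% the T-box motif. Of the 8 members with a promoter there (13 promoters in all), only Prdm1 and Tbx21 held the E-box and none held the T-box motif. These are matches of letters in a short window and were not measured as binding sites.

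Tbx21 was highest in NK and ILC1-like cells. In NK cells it reached 291 CPM in Ctrl (169 UMIs) and 251 CPM in KD (132 UMIs), 2.64-fold (2.24 to 3.08) and 2.38-fold (1.96 to 2.86) its level in CD8 cells. The ILC1-like cells held 245 CPM in Ctrl, from 18 UMIs, and 426 CPM in KD, from 169. CD4 cells followed with 146 and 182 CPM, and CD8 cells (110.2 and 106 CPM), naive-like T cells (129 and 106 CPM) and Treg (90.9 and 93.8 CPM) lay close together. Outside lymphocytes conventional dendritic cells had 50.8 and 28.8 CPM and macrophages 2.01 and 1.44 CPM.

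Eomes had a narrower range of cells. It was at 327 and 198 CPM in NK cells of Ctrl and KD, at 131 and 124 CPM in CD8 cells, and at 139 and 70.3 CPM in naive-like T cells. Levels were low in Treg, at 11.1 and 12.3 CPM from 6 and 8 UMIs. In the ILC1-like cells 1 UMI was found in Ctrl and 22 in KD, which put Eomes in KD at 0.280 (0.168 to 0.447) of its NK level. Absence of Eomes is a known feature that separates ILC1 from NK cells.

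The number of Tbx21 UMIs per Eomes UMI summarised the pair. It was 0.839 (0.795 to 0.886) in Ctrl and 0.854 (0.779 to 0.937) in KD CD8 cells, and 0.889 (0.719 to 1.10) and 1.27 (0.974 to 1.66) in NK cells. It was 2.03 (1.34 to 3.13) and 5.13 (3.80 to 7.05) in CD4 cells, 8.17 (3.49 to 23.3) and 7.63 (3.64 to 18.5) in Treg, and 7.68 (4.91 to 12.6) in the KD ILC1-like cells. CD8 and NK cells thus had the lowest ratio, and Treg and ILC1-like cells the highest, with intervals that did not overlap those of CD8 cells in either library. Within the CD8 class the ratio ran only from 0.762 to 1.03 over the 4 states when the libraries were summed.

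**Figure D2:**
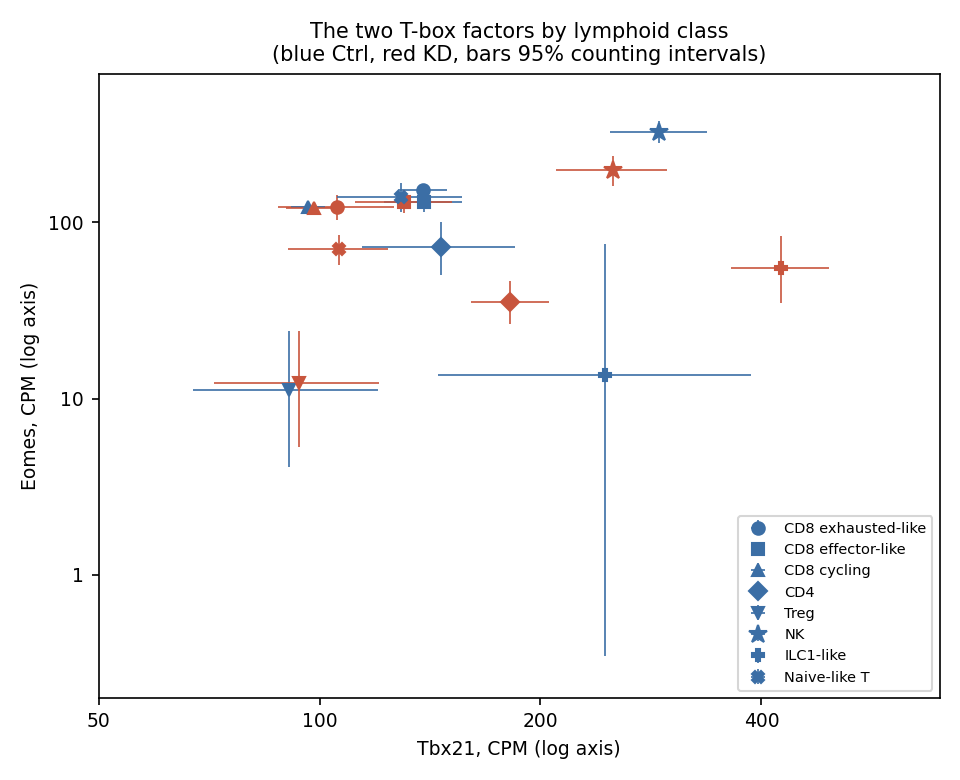
Tbx21 level (x axis, CPM, log scale) against Eomes level (y axis, CPM, log scale) in CD8 states, CD4, Treg, NK, ILC1-like and naive-like T cells, Ctrl in blue and KD in red, with 95% counting intervals as bars. NK cells lie at the top right, Treg at the bottom left with about 11 to 12 CPM of Eomes, and the KD ILC1-like cells furthest right at 426 CPM of Tbx21.

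The 2 T-box factors were found together in single cells. In Ctrl CD8 cells 61.5% of the 1326 cells with a Tbx21 UMI also had an Eomes UMI, against 50.6% of the others, and in KD these shares were 53.7% of 503 and 44.7%. In NK cells the shares were 62.9% and 65.0% in Ctrl, and 49.2% and 45.5% in KD. Cells with more UMIs show more of both genes, so these shares describe detection and not co-regulation. The low share in ILC1-like cells of KD, 8 of 66 cells with Tbx21, matched the low level of Eomes there.

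Foxp3 marked the Treg class even though it had not been used to name it. It reached 106 CPM in Ctrl (57 UMIs) and 126 CPM in KD (82 UMIs), against 2.06 CPM (1 UMI) and 5.45 CPM (8 UMIs) in CD4 cells. CD8 cells had 0.318 and 0.371 CPM, from 7 and 3 UMIs, and NK cells had none. The Treg level was 51.3-fold (8.85 to 2062) the CD4 level in Ctrl and 23.1-fold (11.2 to 55.4) in KD. Foxp3 had 188 UMIs in all filtered cells, and 139 of them were in the Treg class.

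The share of cells with a Foxp3 UMI was limited by depth. It was 45.5% (35 of 77) in Ctrl Treg and 45.7% (53 of 116) in KD Treg, with medians of 5180 and 4208.5 UMIs per cell. With every cell thinned to 1500 UMIs it was 14.9% (11 of 74) and 18.8% (21 of 112), against 0.0394% (1 of 2538) and 0 of 1008 CD8 cells, where a count of 0 allows up to 0.298% (3 counts of the 1008 cells). A Treg without a Foxp3 UMI is therefore not shown to lack the RNA.

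Ikzf2 was the more readily detected Treg factor of the pair. Its Treg level was 2270.0 CPM (Ctrl) and 3093 CPM (KD), 4.13-fold (3.89 to 4.38) and 5.73-fold (5.43 to 6.04) the level of CD8 cells. After thinning, 87.8% of Ctrl and 93.8% of KD Treg still held an Ikzf2 UMI. Ikzf2 was present in 34 of 35 Ctrl and 51 of 53 KD Treg with a Foxp3 UMI, and in 97.6% and 100% of those without one. It was also measured outside Treg: naive-like T cells had 1122 and 589 CPM, ILC1-like cells 612 and 521 CPM, CD8 cells 549 and 540.0 CPM, CD4 cells 457 and 393 CPM, and NK cells 168 and 125 CPM. Within the naive-like class the part with Lef1 and Cd8b1 had 219.6 and 118 CPM, below CD8 cells, and the part with Klra6 and Trdc, which its markers do not name as naive, 1997 and 1472 CPM.

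Gata3 and Rora, the factors of helper T cells, had different ranges. Gata3 was at 128 and 172 CPM in CD4 cells, 121 and 163 CPM in Treg, 85.9 and 70.3 CPM in NK cells, and 56.5 and 57.9 CPM in CD8 cells. Between Treg and CD4 cells the ratio was 0.944 (0.656 to 1.36) in Ctrl and 0.945 (0.746 to 1.19) in KD, within counting error. In myeloid classes Gata3 stayed at or under 2.77 CPM.

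Rora separated helper cells from CD8 and NK cells far more strongly. It was at 845 and 808 CPM in CD4 cells, which was 9.87-fold (8.85 to 10.99) and 7.69-fold (7.04 to 8.41) the CD8 level. Treg had 584 and 517 CPM. A small class of gamma delta-like T cells, with 23 Ctrl and 15 KD cells and Il17a at 686 and 650 CPM, had the highest level, 1425 and 1673 CPM. Endothelial cells, which are no lymphocytes, held 453 and 476 CPM.

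Bcl6 and Prdm1 were distributed in opposite ways over CD8 and naive-like T cells. Bcl6 was at 16.6 and 24.1 CPM in CD8 cells and 9.31-fold (7.53 to 11.4) and 3.98-fold (3.19 to 4.96) higher in naive-like T cells, at 154 and 95.9 CPM. In the part of that class with Lef1 and Cd8b1 it was at 81.0 and 72.8 CPM, and in the part with Klra6 and Trdc at 227 and 141 CPM. Prdm1 was at 81.4 and 84.9 CPM in CD8 cells and 5.46-fold (3.12 to 10.6) and 3.69-fold (2.63 to 5.34) lower in naive-like T cells, at 14.9 and 23.0 CPM. CD4 cells held both, with Bcl6 at 68.0 and 65.4 CPM and Prdm1 at 126 and 157 CPM. Of the CD4 cells with a Bcl6 UMI, 4 of 22 in Ctrl and 20 of 65 in KD also had a Prdm1 UMI, shares of 18.2% and 30.8% against 32.0% and 40.4% of the cells without Bcl6. Both genes were also abundant in myeloid cells: granulocytes had the most Bcl6, 204 and 152 CPM, and macrophages 114 and 99.8 CPM of Prdm1.

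Zeb2 was chiefly a myeloid transcript. It was at 1410.2 and 1742 CPM in macrophages or monocytes, 4.66-fold (4.02 to 5.44) and 3.71-fold (3.28 to 4.22) the level of NK cells, which led the lymphocytes with 303 and 469 CPM. CD8 cells had 157 and 145 CPM and naive-like T cells 57.2 and 43.4 CPM. Free macrophage RNA was measured beside it. In the CD8, CD4, Treg and NK classes C1qa was at 0.935% to 2.03% of its macrophage level and Zeb2 at 4.59% to 26.9% of its own. In naive-like T cells Zeb2 was at 4.05% in Ctrl and 2.49% in KD, C1qa at 1.79% and 1.58%, and Apoe at 2.39% and 1.89%. The part of free RNA in these Zeb2 levels was not tested.

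The first comparison asked whether the members differed in CD8 T cells when the tumor cells held the hairpin against SLAMF3. None of the 8 members with at least 50 UMIs was past 1.5-fold, while 9.41% of all 11940 genes tested were, 3.96% higher and 5.45% lower. The median log2 ratio of the members was 0.01, beside -0.03 over all genes. The T-box factors Tbx21 (-0.06, -0.18 to 0.05) and Eomes (-0.09, -0.19 to 0.02), Gata3 (0.04, -0.12 to 0.19), Prdm1 (0.06, -0.07 to 0.19) and Ikzf2 (-0.02, -0.08 to 0.03) had intervals that included 0 and lay within 0.2 of it.

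The CD8 intervals of Rora, Bcl6 and Zeb2 lay away from 0. Rora was at 85.6 CPM in Ctrl and 105 CPM in KD (0.30, 0.18 to 0.41), Bcl6 at 16.6 and 24.1 CPM (0.54, 0.28 to 0.80), and Zeb2 at 157 and 145 CPM (-0.12, -0.22 to -0.03). Bcl6 lay just under the threshold, and it passed it without the cycling cells (0.70), in cells thinned to 1500 UMIs (0.85) and with classes made from the UMIs of single cells (0.64). With KD set to the mix of clusters seen in Ctrl, Bcl6 was at 0.33. Markers of CD4 and NK cells, which hold more Bcl6 than CD8 cells, were also higher in the KD class. The part of such cells in the Bcl6 ratio was not tested.

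**Figure D3:**
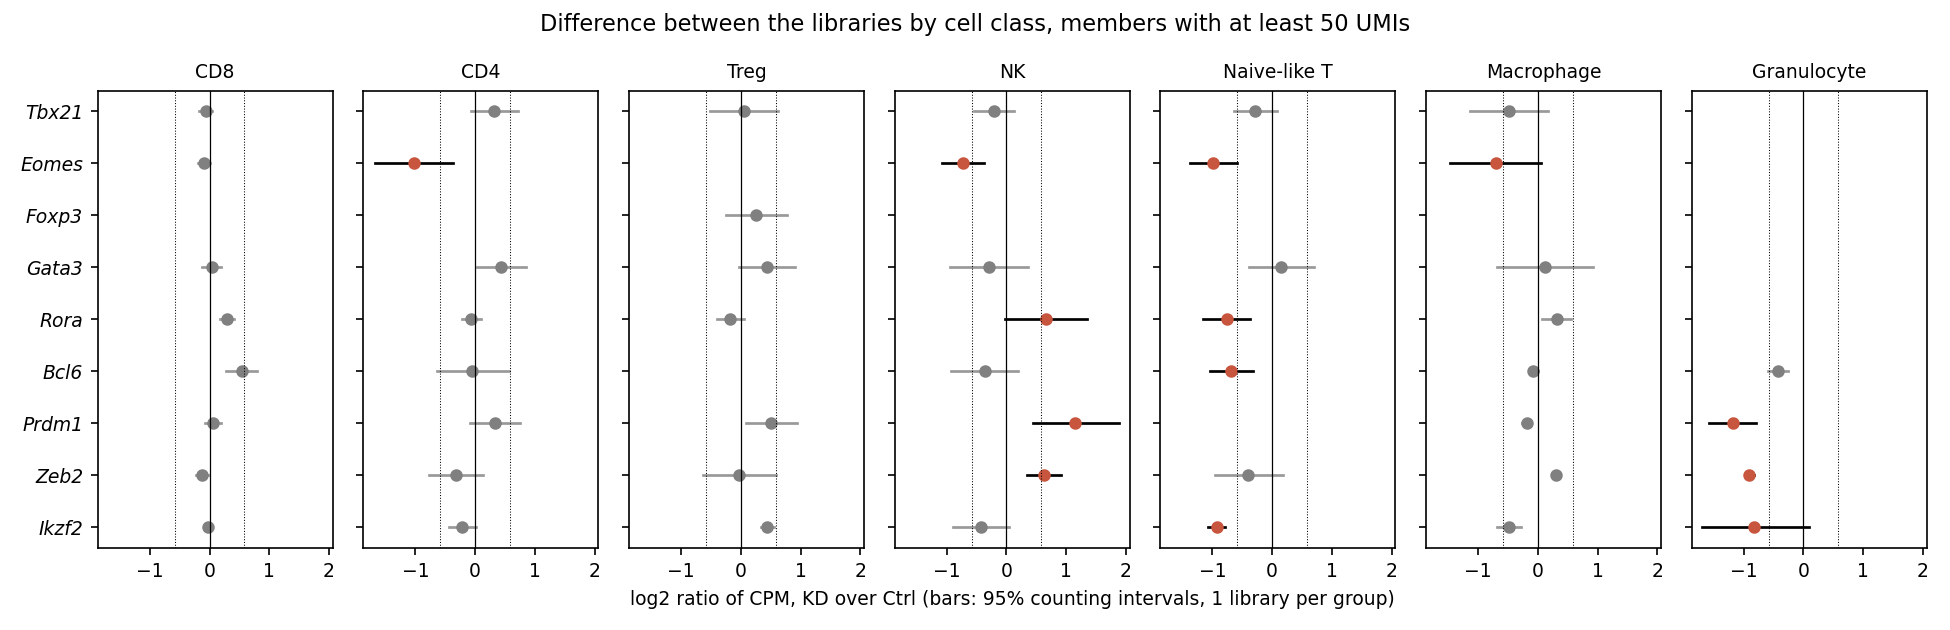
Log2 ratio of KD over Ctrl for each member with at least 50 UMIs in the CD8, CD4, Treg, NK, naive-like T cell, macrophage and granulocyte classes, with 95% counting intervals as bars and red points past 1.5-fold (dotted lines). CD8 ratios lie closest to 0, the NK class has Zeb2, Prdm1 and Rora above and Eomes below the dotted lines, and 4 members of naive-like T cells lie below them.

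The CD8 class was a mix of states whose shares differed. Exhausted-like cells, led by Lag3, Ccl3 and Tnfsf4, were 27.8% of Ctrl and 16.1% of KD CD8 cells, and effector-like cells, led by Ccl5, Gzmk and Ly6c2, were 19.1% and 30.4%. Cycling cells were 47.0% and 48.5%. The rest was a cluster of 90 and 50 cells led by Nrn1, Dapl1, Ccr7 and Slamf6, and a cluster led by Gzmd, Gzme and Gzmc that held 66 Ctrl cells and 1 KD cell. Leaving the last one out kept every CD8 ratio within counting error of its value.

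Within exhausted-like cells several members differed by a little. Tbx21 was at 138 CPM in Ctrl and 106 CPM in KD (-0.39, -0.68 to -0.11), Eomes at 152 and 122 CPM (-0.32, -0.59 to -0.06) and Zeb2 at 216 and 168 CPM (-0.36, -0.59 to -0.14), while Ikzf2 was at 636 and 748 CPM (0.23, 0.12 to 0.34). All of these stayed under 1.5-fold. Prdm1, the factor of terminal cells, was at 100.4 and 106 CPM.

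In effector-like cells the T-box factors did not differ beyond counting error, with Tbx21 at 139 and 130.4 CPM and Eomes at 131 CPM in each. Ikzf2 was the member that differed, at 356 CPM in Ctrl and 255 CPM in KD (-0.48, -0.68 to -0.29), the reverse of its direction in exhausted-like cells. In cycling cells Rora was at 69.1 and 88.8 CPM (0.36, 0.20 to 0.52) and Bcl6 at 13.7 and 17.9 CPM (0.39, 0.02 to 0.75), and Tbx21, Eomes, Gata3, Prdm1, Zeb2 and Ikzf2 lay between -0.06 and 0.08.

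The cluster led by Ccr7 and Slamf6 was high in Bcl6 and low in Prdm1. Bcl6 was at 54.4 and 72.9 CPM there, against 13.7 to 39.2 CPM in the 3 larger states, and Prdm1 at 26.3 and 11.2 CPM, against 77.2 to 106 CPM. Rora (304 and 222 CPM) and Ikzf2 (870.3 and 1203 CPM) were also high. Between the libraries Zeb2 was past 1.5-fold, at 210.1 CPM from 112 UMIs in Ctrl and 107 CPM from 38 UMIs in KD (-0.98, -1.55 to -0.44), and Ikzf2 was higher in KD (0.47, 0.27 to 0.66).

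**Figure D4:**
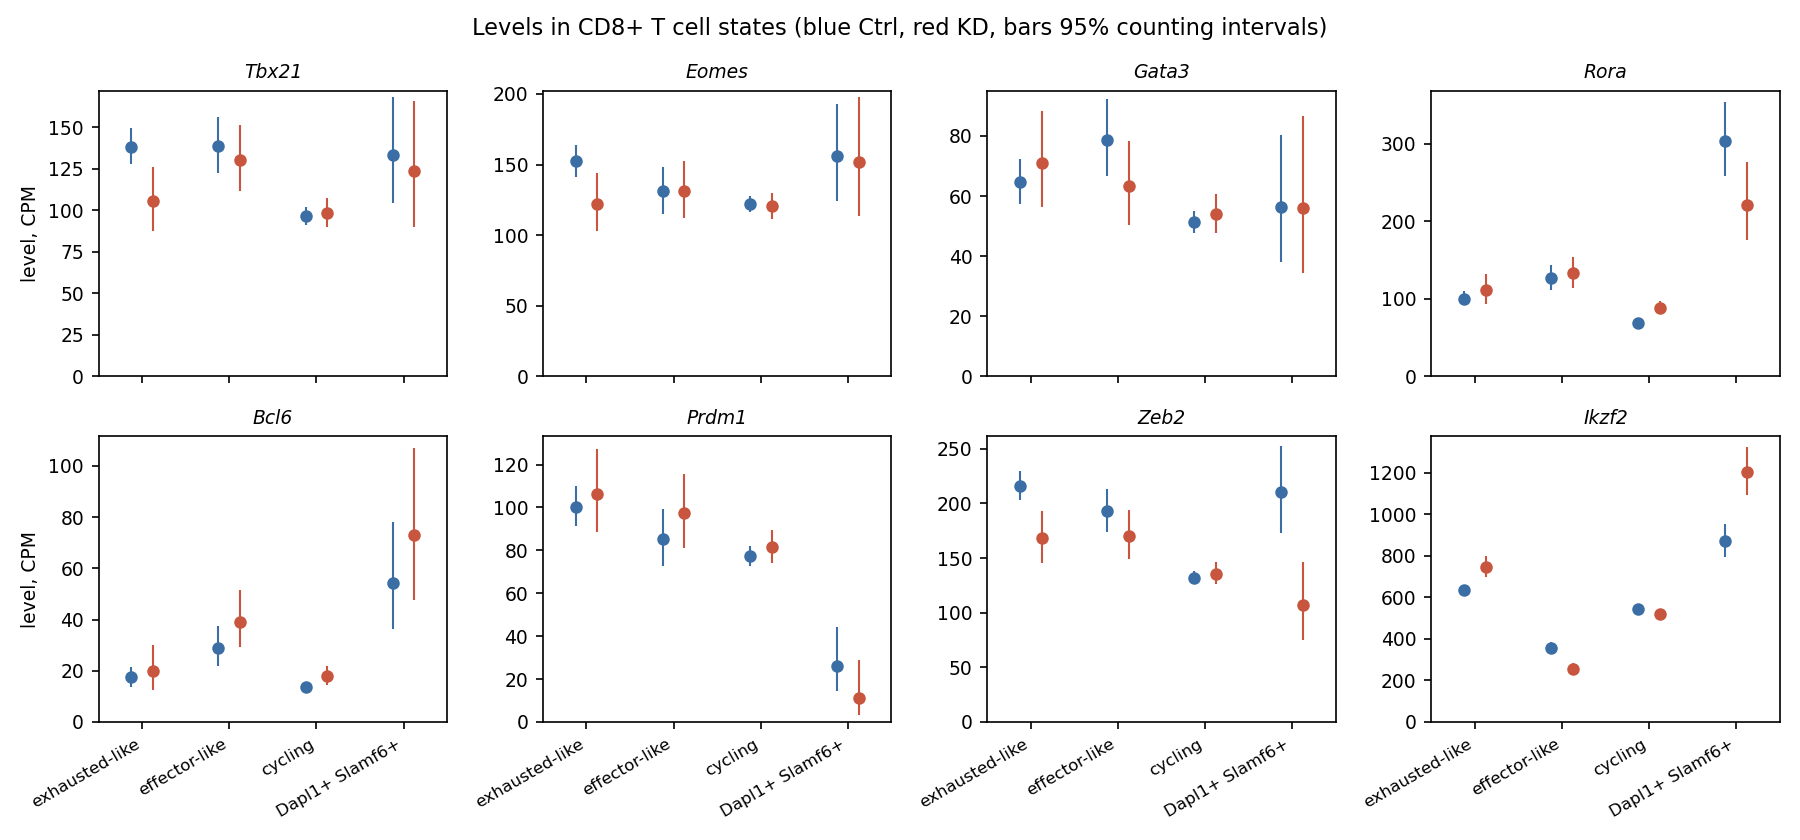
Level (y axis, CPM) of the members other than Foxp3 in 4 CD8 states, the last being the cluster led by Dapl1 and Slamf6, with Ctrl in blue, KD in red and 95% counting intervals as bars. Bcl6 is highest and Prdm1 lowest in the last cluster, at 54.4 and 72.9 CPM and at 26.3 and 11.2 CPM, and Tbx21 and Eomes vary less between the states.

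Other transcription factors of CD8 cells differed between the libraries. Of the list of 52, 49 were tested, and 10 were higher and 4 lower in KD past 1.5-fold, 28.6% beside 9.41% of all genes. The list was chosen with earlier results of these data known, so its shares here and in the classes below are descriptions only. The higher ones included Tcf7 (23.5 and 46.2 CPM, 0.98), Lef1 (30.6 and 60.7 CPM, 0.99), Id3 (8.19 and 20.8 CPM, 1.34), Klf2 (56.9 and 117 CPM, 1.05) and Klf3 (9.23 and 14.9 CPM, 0.69), while Bach2 (-0.05), Satb1 (0.22), Foxo1 (0.22), Myb (0.33) and Foxp1 (0.37) did not pass. Runx1 (0.85), Ahr (1.01), Maf (1.10), Hic1 (1.76) and Tox2 (2.55, from 1.46 to 8.52 CPM) made up the others. Among the 4 lower ones were the interferon-linked Irf8 (276 and 154 CPM, -0.84), the Notch effector Rbpj (-0.73) and Egr2 (-0.64). Lef1 and Tcf7 lead the naive-like T cells, and Cd4 was higher in the KD class, and the part of other cells in these ratios was not tested.

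Genes that the members are known to act on or to be used with, called readout genes, were also counted. Activity of the members was not measured. Of 35, 25 were tested in CD8 cells, and 8 were higher and 1 lower, 36% beside 9.41% of all genes (3.96% higher and 5.45% lower). This list, too, was chosen with earlier results of these data known. Of 6 type 1 genes 2 were higher, with a median of -0.21 over the 6. Ccl5 (3194 and 5019 CPM, 0.65) and Cxcr3 (11 and 26.3 CPM, 1.26), both known targets of Tbx21, were higher in KD, while Ifng (-0.37), Il2rb (-0.47), Il12rb2 (-0.24) and Il18rap (-0.17) lay below 0 without passing. The 4 tested genes of follicular helper and progenitor cells were higher, namely Slamf6 (1.04), Il21 (1.58), Cxcr5 (0.74) and Tnfsf8 (6.5 and 13.2 CPM). Il10 (0.96) and Izumo1r (1.49), from the Treg group, completed the list. Cx3cr1, a gene of late effector cells, was lower (61.2 and 39.4 CPM, -0.63).

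In CD4 cells 1 of 8 members was past 1.5-fold, beside 12.1% of 5201 genes (6.27% higher and 5.81% lower), and the median of the members was -0.06. Eomes was at 72.1 CPM in Ctrl, from 35 UMIs, and 35.4 CPM in KD, from 52 UMIs (-1.02, -1.67 to -0.36). Few cells carried it: 11 Ctrl cells, with 26 of the 35 UMIs in 5 of them, and 25 KD cells. Without likely doublets the ratio was -0.078, and with classes made from the UMIs of single cells it reversed to 0.85, so the direction depended on how CD4 cells were drawn.

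The remaining CD4 factors differed less. Gata3 was at 128 and 172 CPM (0.43, 0.03 to 0.86), Tbx21 at 146 and 182 CPM (0.32, -0.07 to 0.71) and Prdm1 at 126 and 157 CPM (0.33, -0.09 to 0.76). Rora (-0.06), Bcl6 (-0.06), Zeb2 (-0.32) and Ikzf2 (-0.22) had intervals that included 0. A composition scaling (TMM) moved all CD4 ratios up by 0.11, which is part of the size of the smaller ones.

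Among other factors of CD4 cells 41 were tested, with 3 higher and 6 lower, 22% beside 12.1% of all genes. Lower in KD were Satb1 (144 and 60.7 CPM, -1.25), Lef1 (229 and 135 CPM, -0.76), Bach2 (185 and 108 CPM, -0.77), Klf3 (-1.21), Id3 (-1.06) and Irf8 (-0.85), and higher were Runx1 (628 and 972 CPM, 0.63), Rbpj (0.64) and Arid5a (0.63). The direction of Lef1, Klf3, Id3 and Rbpj was opposite to that in CD8 cells. Whether the 2 classes differ was not tested. Of 20 readout genes 4 were higher and 3 lower: Ccr8 (30.9 and 90.7 CPM, 1.55), Il2ra (1.05), Areg (0.81) and Izumo1r (0.59), against Cx3cr1 (-1.60), Il12rb2 (206 and 77.0 CPM, -1.42) and Gzmb (-0.90).

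In Treg none of the 7 members tested was past 1.5-fold, beside 18.5% of 3912 genes (8.46% higher and 9.99% lower). Ikzf2 had the interval furthest from 0, at 2270.0 CPM in Ctrl (1224 UMIs in 75 cells) and 3093 CPM in KD (2011 UMIs in 114 cells), a log2 ratio of 0.45 (0.34 to 0.55). It was 0.30 without likely doublets, 0.27 in thinned cells and 0.21 with the factors kept among the variable genes. Prdm1, at 137 and 195 CPM (0.51, 0.08 to 0.94), fell to 0.01 in thinned cells. Foxp3 itself was at 106 and 126 CPM (0.25, -0.25 to 0.77), so a difference was not detectable at this depth. Gata3 was at 121 and 163 CPM (0.44, -0.02 to 0.90), Rora at 584 and 517 CPM (-0.18, -0.40 to 0.05) and Tbx21 at 90.9 and 93.8 CPM (0.05, -0.52 to 0.62).

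Of 34 other factors tested in Treg 17.6% were past 1.5-fold, near the 18.5% of all genes. Higher in KD were 3, Klf2 (1.19), Runx1 (369 and 717 CPM, 0.96) and Maf (445 and 726 CPM, 0.71). Lower were 3, among them Runx3 (-0.82) and Irf8 (-0.64). Of 18 readout genes 5 were higher and 4 lower, 50% in all. The Treg genes Il10 (111 and 295 CPM, 1.41), an immunosuppressive cytokine, and Lrrc32 (1.28) were higher, as were Ccr8 (0.80), Ccl5 (0.78) and Cxcr3 (0.86), while the IL-2 receptor chain Il2ra was lower (347 and 221 CPM, -0.65). Ifng (249 and 66.1 CPM, -1.91), Il12rb2 (-0.99) and Xbp1 (-1.02) were lower too.

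In NK cells the members differed more. Of 8 members 3 were higher and 1 lower past 1.5-fold, where 3.81% of 3598 genes were higher and 8.98% lower, 12.8% in all. Eomes was at 327 CPM in Ctrl (190 UMIs) and 198 CPM in KD (104 UMIs), a log2 ratio of -0.72 (-1.08 to -0.37). Cells with an Eomes UMI were 63.8% (95 of 149) and 47.5% (56 of 118). In cells thinned to 1500 UMIs they were 39.9% (31.8 to 48.4) and 21.4% (14.3 to 29.9), beside 0.261% and 0.136% of macrophages. Eomes was lower in KD under all 9 alternatives run, with log2 ratios from -1.33 to -0.65. Among these, the classes from the UMIs of single cells did not set ILC1-like cells, which had less Eomes, apart from NK cells.

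Zeb2 and Prdm1 went the other way. Zeb2 was at 303 CPM in Ctrl (176 UMIs) and 469 CPM in KD (247 UMIs), a log2 ratio of 0.63 (0.35 to 0.92), and Prdm1 at 44.7 CPM (26 UMIs in 22 cells) and 98.8 CPM (52 UMIs in 33 cells), a ratio of 1.14 (0.44 to 1.88). Rora also passed, at 56.7 and 89.3 CPM (0.65, -0.02 to 1.34), but 13 of its 47 KD UMIs were in 1 cell. Under the same alternatives Prdm1 stayed between 0.93 and 1.47, while Zeb2 fell under the threshold with the stricter cell filter (0.54), without likely doublets (0.58), at resolution 0.5 (0.22) and with classes from the UMIs of single cells (0.14), and Rora with the first 3 of these and with the factors kept among the variable genes (0.42 to 0.57). Tbx21, the partner of Zeb2, was at 291 and 251 CPM (-0.21, -0.55 to 0.12), and Gata3 (-0.29), Bcl6 (-0.36) and Ikzf2 (-0.43) had intervals that included 0. Without likely doublets Gata3 (-0.70) and Ikzf2 (-0.64) passed the threshold, and Ikzf2 also did with the factors kept among the variable genes (-0.78). Eomes is the factor of NK cell development, and Zeb2 and Prdm1 are factors of NK cell maturation.

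None of 35 other factors was higher in NK cells of KD and 8 were lower, 22.9% beside 12.8% of all genes. Among these were Lef1 (199 and 89.3 CPM, -1.16), Rbpj (-0.99), Nr4a1 (369.6 and 188 CPM, -0.97), Hif1a (-0.91), Irf8 (1025 and 638 CPM, -0.68), Ahr (-0.63) and Stat3 (-0.59). Of 10 readout genes the cytotoxic Gzmb (509 and 906 CPM, 0.83), Ccl5 (6245 and 9475 CPM, 0.60) and Ctla4 (1.14) were higher and Itgam, a marker of mature NK cells, was lower (87.7 and 53.2 CPM, -0.72). Gzmb, Itgam and Prf1 (0.08) were the 3 tested genes of late effector cells and NK maturation. Under 50 UMIs in this group, Klrg1 (2.10, from 8 and 31 UMIs) and S1pr5 (0.88) were higher in KD and Cx3cr1 (-0.27) lower. Median depth in NK cells was 3607 UMIs in Ctrl and 4147 in KD.

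In the ILC1-like class 2 members were higher and 1 lower of 4 tested, beside 27.7% of 1669 genes (15.9% higher and 11.8% lower), and the Ctrl side rests on 15 cells. Tbx21 was at 245 and 426 CPM (0.80, 0.09 to 1.59), Bcl6 at 81.6 and 138 CPM (0.76, -0.45 to 2.27) and Rora at 544 and 229 CPM (-1.25, -1.80 to -0.67). Of the 40 Ctrl UMIs of Rora, 28 were in 5 cells and 14 in likely doublets. Zeb2 had no UMI in Ctrl and 37 in KD, at least 2.28-fold higher than a floor of 3 counts (40.8 CPM).

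Naive-like T cells had 4 of 7 members lower in KD and none higher, 57.1%, beside 6.93% lower, 5.32% higher and 12.2% in either direction over 5600 genes. Ikzf2 was at 1122 CPM in Ctrl (903 UMIs) and 589 CPM in KD (896 UMIs), a log2 ratio of -0.93 (-1.07 to -0.80). Eomes was at 139 and 70.3 CPM (-0.99, -1.38 to -0.59), Rora at 129 and 76.2 CPM (-0.76, -1.16 to -0.37) and Bcl6 at 154 and 95.9 CPM (-0.68, -1.04 to -0.33). Tbx21 (-0.28), Gata3 (0.14) and Zeb2 (-0.40) had intervals that included 0.

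This class was a mix of 2 kinds of cells whose numbers differed. At a finer resolution 88 Ctrl and 236 KD cells formed a part with Lef1 and Cd8b1, and 105 and 116 cells a part with Klra6 and Trdc. Ikzf2 was at 219.6 and 118 CPM in the first part (-0.89, -1.31 to -0.47) and at 1997 and 1472 CPM in the second (-0.44, -0.58 to -0.30). Eomes was at 123 and 42.5 CPM (-1.53, -2.17 to -0.90) and 154 and 121 CPM (-0.34, -0.87 to 0.19). Bcl6 differed in the second part (227 and 141 CPM, -0.69, -1.15 to -0.23) and not beyond counting error in the first (-0.16, -0.78 to 0.50).

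With KD set to the mix of parts seen in Ctrl, the class ratios were -0.74 for Eomes, -0.56 for Rora, -0.52 for Bcl6 and -0.46 for Ikzf2, beside -0.99, -0.76, -0.68 and -0.93 as measured, and the part of the makeup in each was not tested further. Cells with a Cd8a or Cd8b1 UMI, 74 in Ctrl and 165 in KD, had the same level of Ikzf2 in both libraries, 381 and 382 CPM, while Eomes was at 185 and 66.2 CPM (-1.48, -2.02 to -0.95). In cells with neither a CD8 nor a Cd4 UMI, Ikzf2 was at 1782 and 976 CPM (-0.87, -1.03 to -0.71).

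Other factors were also lower in naive-like T cells. None of 40 was higher and 10 were lower, 25% beside the 12.2% over all genes, among them Irf8 (62.1 and 24.3 CPM, -1.35), Nr4a1 (150.3 and 75.5 CPM, -0.99), Nr4a3 (383 and 215 CPM, -0.83), Bhlhe40 (-0.87), Nfil3 (-0.94) and Myb (-0.77). Runx2, Maf, Ahr and Rbpj lay between -0.76 and -0.68. Of 14 readout genes Il12rb2 (149 and 58.5 CPM, -1.35), Ifng (98.2 and 41.4 CPM, -1.25), Gzmb (-0.72) and Ccl5 (-0.66) were lower and Slamf6 was higher (0.90).

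Outside lymphocytes the comparison rests mainly on Zeb2, Bcl6, Prdm1, Rora and Ikzf2, while Tbx21, Eomes, Foxp3 and Gata3 were rare in macrophages. In macrophages or monocytes 1 of 8 members was past 1.5-fold, beside 16% of 13394 genes (6.41% higher and 9.58% lower). It was Eomes, at 1.67 CPM from 44 UMIs and 1.03 CPM from 25 UMIs (-0.69, -1.46 to 0.05), a level near background. Zeb2 was at 1410.2 CPM (37213 UMIs) and 1742 CPM (42224 UMIs), a ratio of 0.30 (0.28 to 0.32), Prdm1 at 114 and 99.8 CPM (-0.19, -0.27 to -0.11), and Bcl6 at 108 and 102 CPM (-0.07, -0.15 to 0.00).

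The Zeb2 difference was uneven over macrophage clusters. It was 1037 and 1494 CPM (0.53, 0.49 to 0.56) in the cluster led by C1qa and other complement genes, and 2522 and 3759 CPM (0.58, 0.52 to 0.63) in a cluster of low UMI counts led by Mitf. The cluster led by Vcan, a gene of monocytes, had 1993 and 1865 CPM (-0.10, -0.13 to -0.06), and the cycling cluster 989 and 1179 CPM (0.25, 0.16 to 0.34). Prdm1 differed most in the Vcan cluster, 178 and 115 CPM (-0.63, -0.75 to -0.51).

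Granulocytes had the opposite direction for Zeb2. It was at 1216 CPM (2215 UMIs) in Ctrl and 648 CPM (4702 UMIs) in KD, a ratio of -0.91 (-0.98 to -0.83), and Prdm1 at 48.3 and 21.2 CPM (-1.19, -1.57 to -0.79) and Ikzf2 at 9.33 and 5.24 CPM (-0.83, -1.69 to 0.08) were also past the threshold, so 3 of 4 members tested were lower. Over all 7184 genes of granulocytes 15.1% were lower and 21.3% higher, 36.3% past the threshold, with a median of 0.14. The share of cells led by Ngp and Camp, genes of immature neutrophils, was larger in KD, 575 of 2223 cells against 43 of 776. Within the other cluster, led by G0s2, Zeb2 was at 1326 and 918 CPM (-0.53, -0.61 to -0.45) and within the Ngp cluster at 481 and 262 CPM (-0.87, -1.16 to -0.58), and with the mix of Ctrl the ratio was -0.55.

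**Figure D5:**
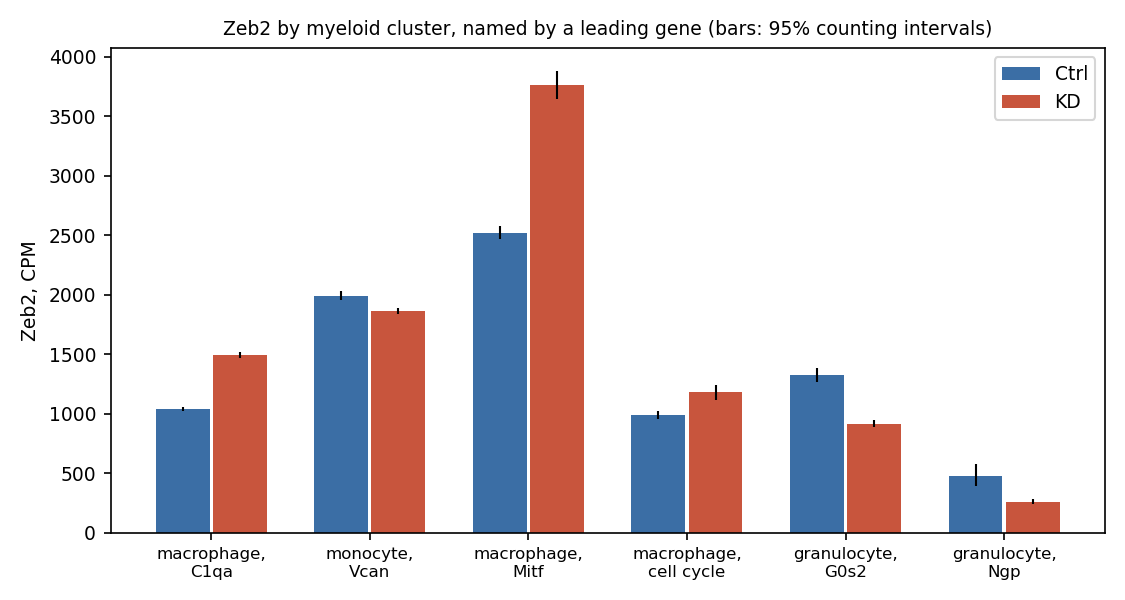
Zeb2 level (y axis, CPM, from 0) in 4 macrophage or monocyte clusters and 2 granulocyte clusters, each named by a leading gene, with Ctrl in blue, KD in red and 95% counting intervals as lines. Zeb2 is higher in KD in the macrophages led by C1qa (1037 and 1494 CPM) and by Mitf (2522 and 3759 CPM), and lower in KD in both granulocyte clusters.

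Conventional dendritic cells had Zeb2 at 314 and 477 CPM (0.60, 0.49 to 0.71), with Tbx21 at 50.8 and 28.8 CPM (-0.82, -1.15 to -0.48) and Ikzf2 at 55.8 and 28.7 CPM (-0.96, -1.29 to -0.63), 3 of 6 members tested beside 11.5% of 9087 genes (6.32% higher and 5.19% lower). Likely doublets held 172 of the 890 Ctrl and 840 of the 2581 KD UMIs of Zeb2 in conventional dendritic cells. Plasmacytoid dendritic cells had 574 and 715 CPM of Zeb2. In B cells, 2 of 4 members were past 1.5-fold, beside 11.2% of 6667 genes (5.14% higher and 6.1% lower): Prdm1 was at 29.0 and 16.5 CPM (-0.81, -1.58 to -0.01), and Ikzf2 at 7.56 and 32.2 CPM (2.09, 0.90 to 3.58). Of the 80 KD UMIs of Ikzf2 in B cells, 67 were in likely doublets. Bcl6 was at 106 and 84.5 CPM there and Zeb2 at 211 CPM in both libraries. Endothelial cells had 2 of 5 members lower, beside 19.4% of 9054 genes (9.65% higher and 9.73% lower), Bcl6 (71.4 and 46.1 CPM, -0.63, -1.01 to -0.24) and Prdm1 (51.4 and 31.2 CPM, -0.72, -1.17 to -0.25), with Rora at 453 and 476 CPM. Likely doublets held 44 of the 82 Ctrl and 80 of the 198 KD UMIs of Bcl6 in endothelial cells, and 37 of the 59 Ctrl and 60 of the 134 KD UMIs of Prdm1.

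The genes most like each member in distribution were sought over 30 points, the 15 classes with enough cells in each of both libraries, among 11115 genes. Points share a library and the cells of a class, so the values are descriptions only. Eomes was most like Ms4a4b (Pearson r 0.954), Ctsw (0.950) and Ddx43 (0.942), and Tbx21 like Ptpn22 (0.937), Rab19 (0.936) and Gm15472 (0.930). Foxp3 was nearest to Itgb8 (0.838), Il2ra (0.738) and Sdf4 (0.724). Gata3 was nearest to Sytl2 (0.935), Acsbg1 (0.931) and Gm17745 (0.917), and Rora to Csnk1a1 (0.900), Aopep (0.869) and Tnfsf10 (0.867). Bcl6 was nearest to Klf3 (0.826), C230096K16Rik (0.817) and Zfand3 (0.794), and Prdm1 to Hip1 (0.815), Adap1 (0.797) and AW112010 (0.796). Zeb2 followed Atp6v1a (0.901), Atp6ap1 (0.897) and Amdhd2 (0.893), and Ikzf2 followed Gm28112 (0.916), Trac (0.912) and Lysmd2 (0.897).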

How the data were processed

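Per the files, the deposited values are raw UMI counts per gene and barcode, which the authors made from 10x 3' v3.1 libraries. The submitters' processing notes name Cell Ranger 7.1.0, Seurat 5.1.0, R 4.4.1 and the build GRCm39. Whether intronic reads were counted is not given in the sources used here, and this could change the levels of long genes such as Zeb2, Ikzf2 and Rora between classes.

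Following the study's filter, barcodes with under 200 or over 6000 genes, more than 30000 UMIs or more than 10% of UMIs from mitochondrial genes were dropped, which left 19999 of 21359 barcodes. Doublets were not removed otherwise, and as an alternative the 771 Ctrl and 830 KD cells of highest Scrublet score (scanpy 1.11.5) were left out. Counts were log-normalized and clustered in Seurat 5.3.0 (R 4.3.3) with 2000 variable genes, 20 principal components and resolution 0.5, and lymphoid cells were clustered again at 1.0, without the 9 members and the 52 listed factors among the variable genes. Clusters were named from marker lists and are "-like" in the sense of those markers, and clusters with too few markers or leading genes of another class stayed unnamed. The members and lists were chosen with earlier results of these data known, and parts of the naming rules were chosen with the clusters in view.

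UMIs were summed per class and library. CPM have exact Poisson intervals, log2 ratios exact conditional binomial intervals and shares exact Clopper-Pearson intervals (scipy 1.17.1), at 95% and for counting error only. Cells are not replicates, so no test was made. The genes named are the members, the listed factors and readout genes past 1.5-fold with at least 50 UMIs over both libraries, and the 3 genes of highest Pearson correlation with each member in log2(CPM + 1) among genes with at least 500 UMIs. Genes that lead a cluster or mark other cells were named after their values were seen. Shares were computed at 1500 UMIs drawn per cell, without the 745 Ctrl and 593 KD cells below that. The procedure was tested on simulated data. Alternatives were a stricter cell filter (500 genes, 5% mitochondrial), removal of likely doublets, other resolutions, classes from the UMIs of single cells, TMM scaling (edgeR 4.0.16), no cycling clusters, factors kept among the variable genes, means per cell, thinned cells and a 2-fold threshold. Alternatives chosen after seeing the data were the CD8 class without 1 cluster and ratios with the cluster mix of Ctrl. Promoter sequences were taken from RefSeq in build GRCm38.p6, and no other coordinates are given. Some genes of the lists are counted but not reported by name here.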

Additional observations from a re-analysis of the deposited data

Results flagged for a closer look

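Ratios of the same member that lay past 1.5-fold in opposite directions in different cell classes, with intervals on either side of 0, were picked out. The difference between the classes was not tested in any of these, since each group was 1 library. Tbx21 was higher in KD in ILC1-like cells (log2 ratio 0.80, 0.09 to 1.59) and lower in conventional dendritic cells (-0.82, -1.15 to -0.48), where the Ctrl ILC1-like side rests on 15 cells. Prdm1 was higher in NK cells (1.14, 0.44 to 1.88) and lower in granulocytes (-1.19, -1.57 to -0.79). Zeb2 was higher in NK cells (0.63, 0.35 to 0.92) and lower in granulocytes (-0.91, -0.98 to -0.83), and the share of granulocytes led by Ngp and Camp was larger in KD. Ikzf2 was higher in B cells (2.09, 0.90 to 3.58) and lower in conventional dendritic cells (-0.96, -1.29 to -0.63), and 63 of the 80 KD UMIs in B cells came from 5 cells.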

How the results depend on the processing

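Over 50 pairs of a member and a class, 475 ratios were recomputed under the alternatives, of which 423 stayed within the counting interval of the reported ratio, 51 moved outside it and 1 reversed. The reversed one was Eomes in CD4 cells, at 0.85 with classes made from the UMIs of single cells. The number of members past 1.5-fold in CD8 cells was 1 instead of 0 with those classes, without cycling clusters and in thinned cells, each time Bcl6. It was 2 in Treg (1 higher, 1 lower) in thinned cells, and in NK cells 2 with the stricter cell filter and at resolution 0.5 and 1 at a 2-fold threshold. Without likely doublets it stayed at 4 in NK cells, with 1 higher and 3 lower, and at 1 in CD4 cells, where Gata3 was higher. In macrophages it was 0 without cycling clusters and at the 2-fold threshold, 2 with factors kept among the variable genes and with the cluster mix of Ctrl, and 3 with means per cell. The share of NK cells with an Eomes UMI, 39.9% in Ctrl and 21.4% in KD, was 63.8% and 47.5% without thinning, 20.9% and 12.8% at 1000 UMIs, and 29.8% and 10.5% with classes from the UMIs of single cells. The last of these NK classes held 128 Ctrl and 176 KD cells before thinning and did not set ILC1-like cells apart. The cause of the shifts between alternatives was not tested. Counts of the other factors (13 to 16) and readout genes (9 to 11) past 1.5-fold in CD8 cells stayed within 1.5 times of the reported 14 and 9. Classes from the UMIs of single cells were not run for Treg, macrophages, granulocytes and naive-like T cells, and the cycling alternative only for CD8 cells and macrophages. Ratios of ILC1-like, dendritic, B and endothelial cells were not recomputed under any alternative. No paired analysis was possible because each group had 1 library, and for the same reason no replicate could be left out. Ctrl CD4 and both libraries of the Treg, NK and ILC1-like classes held under 150 cells, which limits their depth.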

Other observations

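A lymphoid cluster that stayed unnamed held 6 Ctrl and 96 KD cells and was led by Il4, Zbtb16 and Cd40lg, genes known from innate-like T cells. In KD it had Tbx21 at 222 CPM (86 UMIs), Gata3 at 240.4 CPM (93 UMIs), Rora at 486 CPM (188 UMIs) and Ikzf2 at 287 CPM (111 UMIs), with Eomes at 12.9 CPM and no Foxp3. Its Gata3 level was above the 172 CPM of KD CD4 cells. The Ctrl side, with 7 UMIs of Tbx21 and 6 of Gata3, was too small for a comparison.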
